A study of Mus musculus with 20 samples.

Results

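Wild-type haematopoietic stem cells (HSC) kept in culture were compared with wild-type haematopoietic progenitor cells (HPC) kept in culture, at the level of polyadenylated RNA. The comparison uses 6 of the 20 samples of the series, namely the 3 HSC and the 3 HPC libraries labelled Runx2 WT, and the gene counts of both populations were joined by gene name after genes on chrX and chrY had been dropped. All cells came from mouse bone marrow. HSC carried the surface proteins CD201, CD150, Kit and Sca1 and lacked lineage markers, and HPC carried Kit and Sca1 and lacked CD201, CD150 and lineage markers, so KSL (Kit+ Sca1+ Lineage-) is common to both and the other 2 proteins set them apart. The remaining RNA libraries are HSC and HPC of Runx2 heterozygous (het) and homozygous (hom) knockouts, 3 libraries each, and the 2 CUT&Tag samples were not analysed here. The sources used here give no strain, age, culture medium, time in culture or number of animals. The series text names both floxed Runx2 mice and CRISPR knockout as sources of cells, and the labels do not say which of these the wild-type libraries are controls for.

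Haematopoietic stem cells renew themselves and give rise to all blood lineages, and within the KSL compartment CD201 and CD150 enrich for cells that can rebuild the blood of a transplanted host. Progenitors that have lost these proteins divide in shorter-lived bursts and begin to switch on genes of single lineages, such as the granule proteins of neutrophils or the receptors of mast cells. Transcription factors that hold the stem-cell state, cytokine receptors, cell-cycle regulators and the ribosome-building machinery are known to differ along this path. KSL cells are also heterogeneous, and in bulk RNA fewer cells of a type and less RNA per cell cannot be told apart.

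The WT libraries held 18471641 to 23417608 counts in HSC and 21386411 to 22284511 in HPC, and 3 counts, the limit that a count of 0 allows by counting error alone, equal 0.133 to 0.168 CPM (counts scaled by library size) in HSC and 0.140 to 0.146 CPM in HPC. Mitochondrial genes took 1.54% to 2.09% of the counts in HSC and 1.76% to 2.38% in HPC, and 13597 to 14076 genes had at least 10 counts in an HSC library against 12971 to 13318 in an HPC library. The HSC libraries expressed Y-linked Ddx3y (145 to 167 CPM) and had Xist, which coats the silenced X chromosome, at 0 to 0.0436 CPM. The HPC libraries had Xist at 3778 to 3866 CPM and Ddx3y at 0. The sex of the cells therefore differed between the populations, and every HSC library comes from 1 deposited table and every HPC library from the other, so cell type, sex and anything that differed between the tables cannot be told apart in any result that follows. The first principal component of the 6 libraries separated HSC from HPC and held 77.5% of the variance. Nothing in the labels ties a replicate to its own animal or culture. The p-values rest on the spread between replicate libraries, which may be technical and was estimated over all 18 libraries, knockouts included. The common dispersion, a measure of this spread, was 0.00857 over all 18, 0.00625 in WT HSC and 0.00396 in WT HPC.

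The genes of the sorted proteins were examined first. Procr (chr2:155751125-155755478 in mm10), which encodes CD201, measured 41.5, 44.6 and 55.6 CPM in the 3 WT HSC libraries and 5.37, 5.59 and 6.52 CPM in the 3 WT HPC libraries. Every HSC library lay above every HPC library, and the log2 fold change (HSC minus HPC, with the standard error of the fit here and below) was 3.02 ± 0.20 with an adjusted p of 6.09e-10 (edgeR). Slamf1 (chr1:171767131-171801184), the gene of CD150, measured 21.2, 18.4 and 19.7 CPM in HSC and 10.2, 9.77 and 13.4 CPM in HPC. The groups again did not overlap, but the difference was smaller, at 0.83 ± 0.15 on the log2 scale (adjusted p = 8.24e-05), and the HPC sorted without CD150 protein still held Slamf1 transcript. Kit (chr5:75574987-75656722), the receptor for stem cell factor that both sorts require, measured 458, 459.9 and 471 CPM in HSC and 428, 501 and 480.1 CPM in HPC, overlapped between the groups and did not pass the test (-0.02 ± 0.07, adjusted p = 0.82). Ly6a (chr15:74994877-74998031), the gene of Sca1, is listed at 0 in all 18 libraries. Rrm2 and Atf4, genes of nucleotide synthesis and of the stress response that dividing cells use, are listed at 0 in all 18 libraries too, so these entries give no check of the sort. The same caution applies to every gene below that is listed at 0 in all 18 libraries.

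The RUNX genes encode DNA-binding proteins that pair with the product of Cbfb. Runx2 (chr17:44495987-44814797), the gene deleted elsewhere in the series, measured 123, 130.4 and 127 CPM in WT HSC and 126, 133 and 133 CPM in WT HPC, overlapped between the groups and did not pass the test (-0.04 ± 0.06, adjusted p = 0.57). Runx1 measured 171, 193 and 184 CPM in HSC and 247, 262 and 259.8 CPM in HPC and was lower in HSC without overlap (-0.49 ± 0.06, adjusted p = 1.20e-06). Cbfb (-0.42) and Runx3 (-0.39) were lower in HSC as well, and Runx3 has a copy on an alternate contig of the annotation, which makes its level uncertain.

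Of 47096 genes off the sex chromosomes, 14874 had enough counts to be tested, and 8144 of them (54.8%) passed an adjusted p of 0.05. Those split almost evenly, with 4110 (27.6%) higher in HSC and 4034 (27.1%) lower. At 9576 genes (64.4% of those tested) the 3 HSC libraries did not overlap the 3 HPC libraries, and the median log2 fold change of all genes tested was 0.03. Called genes with at least a 2-fold difference numbered 2513 (16.9%), of which 1756 (11.8%) were higher in HSC and 757 (5.09%) lower. The balance turned with the size of the difference. At 4-fold or more 614 genes were higher and 374 lower, at 8-fold or more 194 and 220, and at 32-fold or more 28 and 65. Genes that passed the 2-fold bound upward were expressed at low levels, with a median of 2.65 CPM in the higher population against 5.28 CPM for the downward set and 25.5 CPM for all genes tested, and 419 of the 1756 (23.9%) stayed under 1 CPM. Predicted genes, with names of the Gm and Rik kind, made up 34.3% of the upward set, 18.9% of the downward set and 17.6% of all genes tested. With a minimum of 5 CPM in the higher population 639 genes were higher by 2-fold or more and 384 lower.

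**Figure D1:**
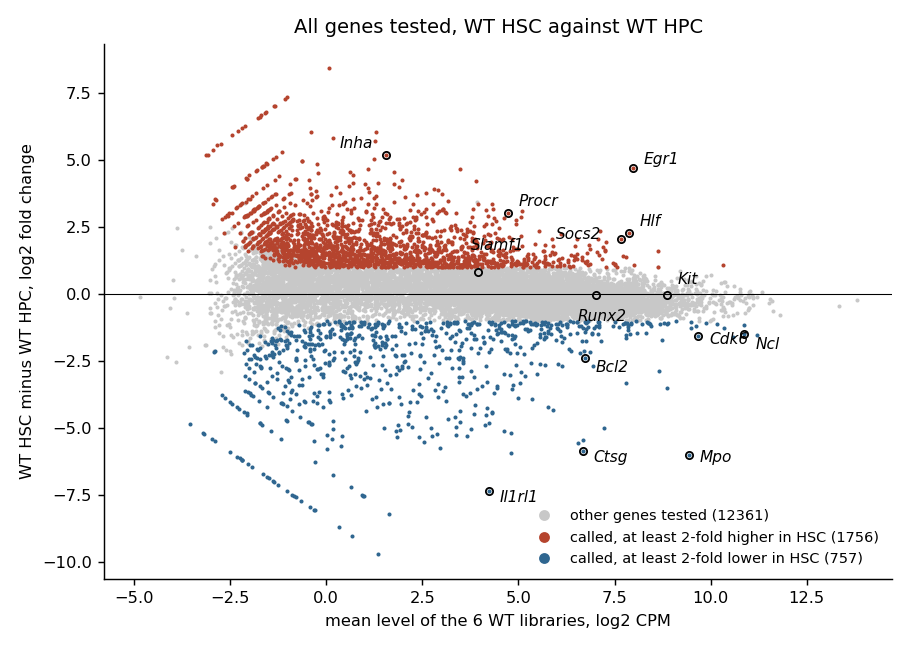
Each point is a gene tested, with the mean level of the 6 WT libraries in log2 CPM on the horizontal axis and the log2 fold change of WT HSC minus WT HPC on the vertical axis (2 genes at 0 counts in all 6 libraries are not drawn). The 1756 genes called at least 2-fold higher in HSC crowd at low levels, while Mpo, Ctsg and Ncl lie far below 0 at high levels, and Kit and Runx2 lie near 0.

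The largest differences upward were taken among named genes with at least 5 CPM in the higher population. Inha (chr1:75507077-75510366), which encodes the inhibin alpha subunit, came first. It measured 5.10, 5.85 and 6.33 CPM in HSC and 0.0516, 0.0517 and 0.341 CPM in HPC, a log2 fold change of 5.20 ± 0.45 (adjusted p = 6.71e-09). The WT value became 6.63 without the third HPC library, in which Inha was highest. Clip3 (4.67 ± 0.44), Bcl6b (4.56 ± 0.42), a repressor of the BCL6 family with an alternate-contig copy, and Efna1 (4.09 ± 0.44), a ligand of Eph receptors, were higher in all HSC libraries too. Prex2 (3.88 ± 0.26), an activator of the GTPase Rac, measured 11.3, 15.8 and 14.6 CPM in HSC and 0.774, 1.09 and 0.973 CPM in HPC, and Npr2 (3.73 ± 0.38), a receptor for C-type natriuretic peptide, 13.1, 16.6 and 15.4 CPM and 0.929, 0.931 and 1.51 CPM. Ccdc60, Sspo, Cpne8, Tns2 and Rhbdf1 complete the upward set with the transcription factor gene Egr1, described with the immediate early genes below, and of these 12 genes Egr1 alone exceeded 100 CPM in any library.

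Downward, with the same bound of 5 CPM in the higher population, the largest differences belonged to genes that HSC libraries barely held. Called genes under the bound are left out in both directions, such as Peg3 (7.02) and S100a9 (-9.02), each at 0 counts in 1 population. Csrp3 (chr7:48830398-48848051), known as a muscle LIM protein gene, had 0 counts in all HSC libraries and 6.09, 4.603 and 4.67 CPM in HPC, at least 107-fold higher in HPC against a floor of 3 counts over the HSC group. Il1rl1 (chr1:40404864-40465418), which encodes the interleukin-33 receptor of mast cells and type 2 lymphoid cells, measured 0, 0.256 and 0.375 CPM in HSC and 39.2, 35.0 and 38.1 CPM in HPC (-7.34 ± 0.29, adjusted p = 4.56e-14). Its HSC levels lie near the level of 3 counts, and the fitted change was -7.99 without the third HSC library. Cox6a2, a subunit of cytochrome oxidase whose exons overlap those of Itgad, had 1 count in HSC and 369 in HPC, a ratio of 366 (95% interval 65.2 to 14480.0), with an interval that covers counting error only. Atp8b4 (chr2:126320973-126500669), a phospholipid-transporting ATPase gene, was far more abundant, at 4.73, 5.72 and 3.62 CPM in HSC and 199, 213 and 192 CPM in HPC (-5.43 ± 0.26, adjusted p = 1.73e-10). Gpr141 (-5.92), Kcnq3 (-5.52), Kmo (-5.31), an enzyme of tryptophan breakdown, and Mycl (-5.32, and -6.26 without the first HSC library), a MYC family gene, completed the set with the granule and mast cell genes Mpo, Ctsg, Gzmb and Fcer1a. The groups overlapped at none of these 24 genes, as the naming rule requires.

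**Figure D2:**
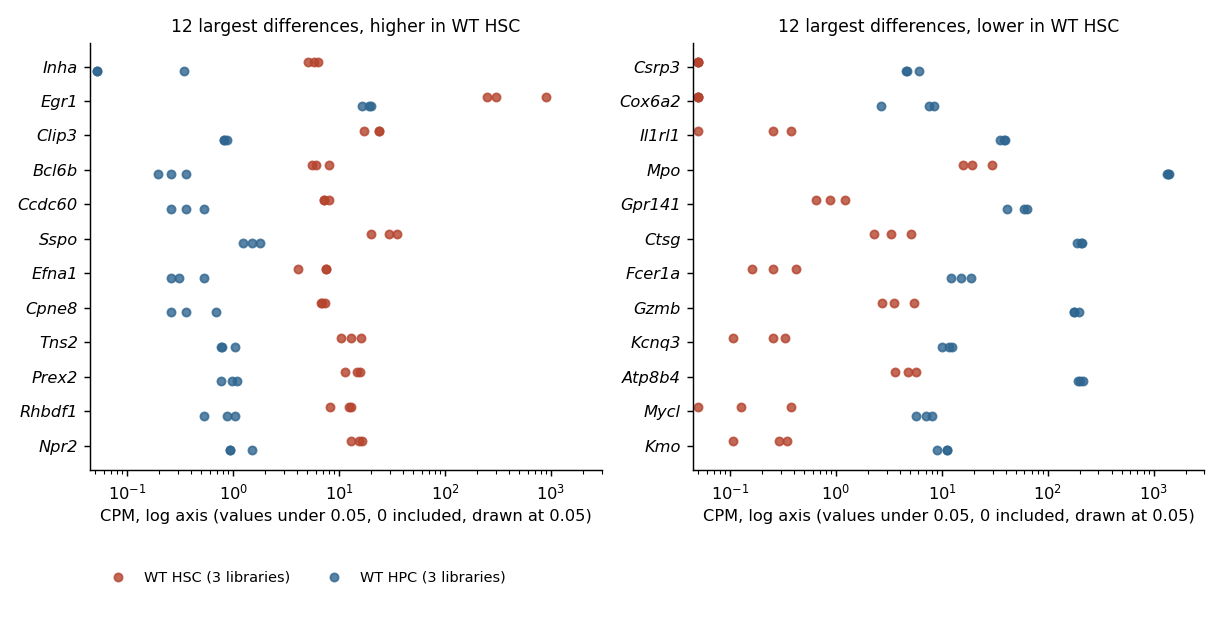
Levels in CPM (log axis) of the 12 genes with the largest differences upward (left) and downward (right) in each of the 3 WT HSC and 3 WT HPC libraries, 1 point per library. The genes were ranked among those called with at least 5 CPM in the higher population and no overlap, predicted genes left out. Mpo stands at 1357, 1388 and 1317 CPM in HPC against 29.8, 18.996 and 15.8 CPM in HSC, and the second HSC library is far above the other 2 for Egr1.

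The 37 gene lists show which programs moved together. They were chosen with earlier results of these data known, so their counts describe the libraries and are read against the shares of all genes tested, 27.6% called higher and 27.1% called lower.

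**Figure D3:**
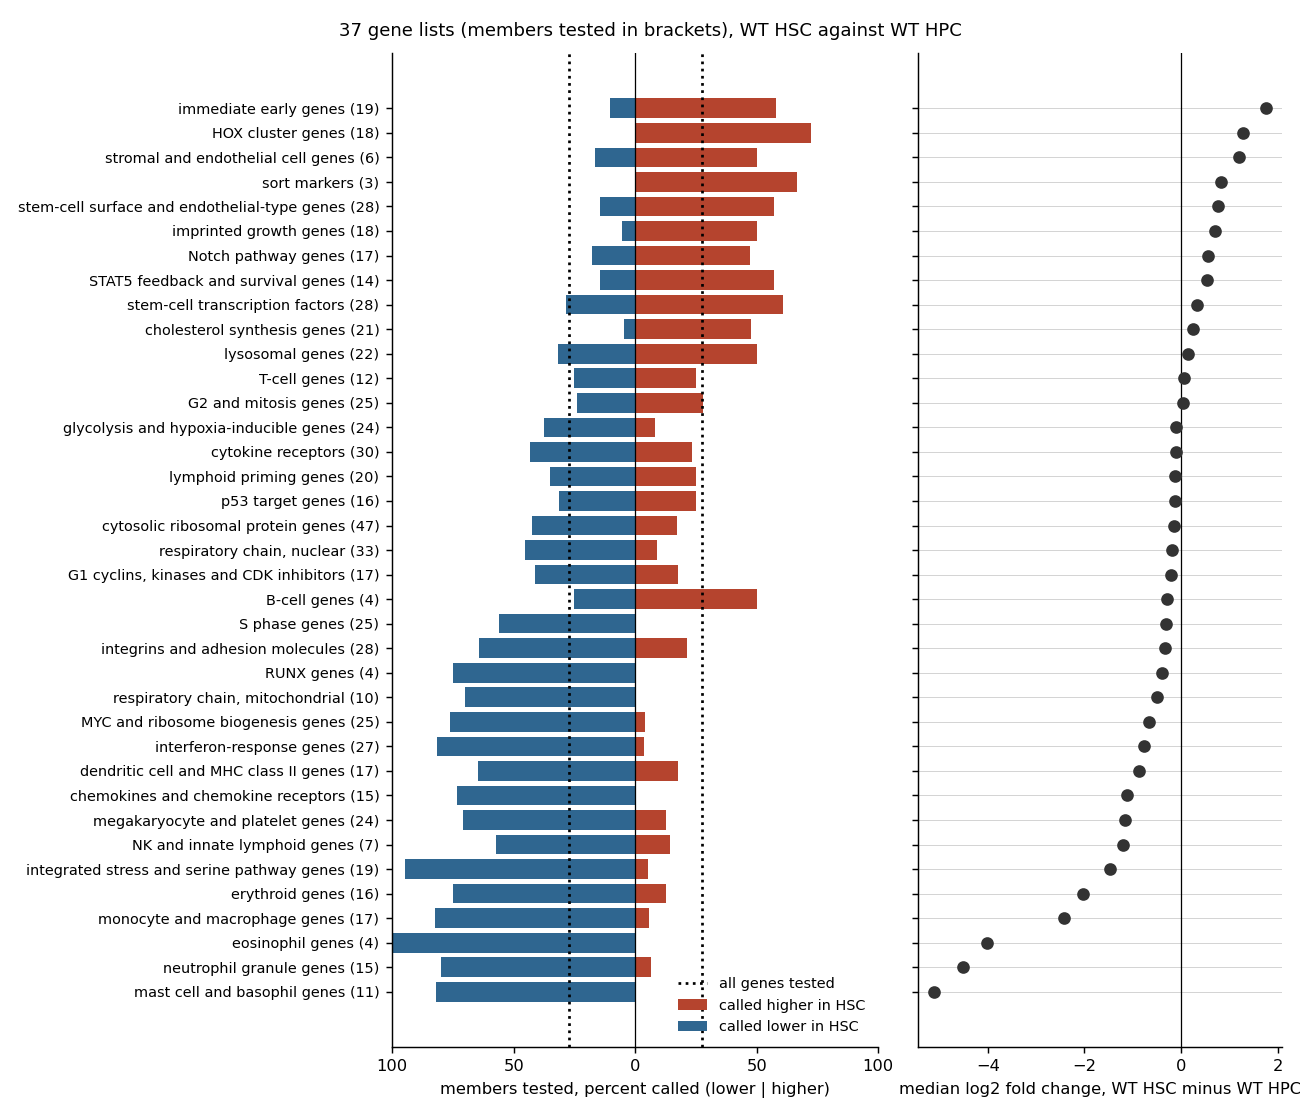
For each of 37 gene lists, the left panel gives the percentage of tested members called lower (left of 0) or higher (right of 0) in WT HSC, with the shares of all genes tested as dotted lines, and the right panel gives the median log2 fold change of the tested members. Mast cell and basophil, neutrophil granule and eosinophil genes have medians of -5.11, -4.51 and -4.02, and immediate early and HOX cluster genes have medians of 1.76 and 1.29.

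Transcription factors of the stem-cell state were mostly higher in HSC. Of the 28 on the list, 17 were higher, 8 lower and 3 did not pass the test, with a median log2 fold change of 0.34. Hlf (chr11:90336535-90390917), a leucine zipper factor that marks long-term stem cells, measured 361, 396 and 412 CPM in HSC and 77.2, 83.1 and 82.6 CPM in HPC. The lowest HSC library was thus above 4 times the highest HPC library, and the log2 fold change was 2.27 ± 0.18 (adjusted p = 3.71e-08). Klf12 (1.54 ± 0.15), Hoxa10 (1.88 ± 0.17) and Hoxa9 (0.82 ± 0.08) were higher in HSC, and so were 3 factors chosen after their values were seen, Prdm16 (2.06 ± 0.21), Gfi1 (1.85 ± 0.16) and Mecom (1.06 ± 0.14), all known to maintain stem cells in mice. Mecom measured 98.9, 105.2 and 119 CPM in HSC and 48.0, 54.9 and 52.0 CPM in HPC. In the other direction stood Zbtb16 (chr9:48651797-48836225), which encodes PLZF, at 2.92, 3.97 and 4.12 CPM in HSC and 37.6, 41.1 and 39.5 CPM in HPC (-3.41 ± 0.13, adjusted p = 4.26e-15). Nfe2 (-0.59) and Fli1 (-0.55) were lower in HSC by less than 2-fold, as was Gata2 (-0.33), chosen after its values were seen.

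HOX genes, which set position in the embryo and self-renewal in blood, included no gene called lower in HSC. Of 32 genes 18 were tested, 13 were higher in HSC, 0 were lower and 5 did not pass the test. A filter on low counts admits genes expressed in either population, and the 14 HOX genes left out were near or at 0 in both. Hoxa9 was the most abundant in CPM, at 71.3, 60.8 and 75.7 in HSC and 39.4, 39.5 and 38.5 in HPC (adjusted p = 2.71e-08). Hoxa5 measured 16.5, 15.6 and 14.3 CPM in HSC and 6.35, 6.52 and 5.50 CPM in HPC (1.33 ± 0.13), and Hoxa10 11.4, 10.5 and 12.8 CPM and 3.77, 2.90 and 2.77 CPM. Exons of Hoxa10 and Hoxa3 (1.34) overlap those of neighbouring transcripts, so their levels are uncertain. The same holds below for Ccnd3, Cd34, Dll4, Il6ra, Mef2c and Usp18, and alternate-contig copies exist for Cd28, Ier3 and Ltb.

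Surface and endothelial-type genes that mark stem cells followed the same course, with 16 of 28 higher in HSC, 4 lower and 8 not past the test (median 0.76). Esam (chr9:37528089-37538319), an adhesion molecule of endothelium and stem cells, measured 35.9, 33.4 and 41.1 CPM in HSC and 4.85, 5.79 and 5.94 CPM in HPC (2.73 ± 0.15, adjusted p = 1.52e-12). Jam3 (3.12 ± 0.22), another junction protein, and Robo4 (2.42 ± 0.16), a receptor known to hold stem cells in the niche, were higher in HSC in all 3 libraries. The 4 genes that were lower are Itga2b (-1.47), the CD41 integrin of megakaryocytes, Cd63 (-0.84), Itga6 (-0.40) and Cd34 (-0.23), and Cd34 lost its call with upper-quartile factors (-0.15) and without the second HSC library (-0.18). Cd48 and Flt3, surface genes used to separate progenitors from stem cells and picked once their values were known, missed the threshold. Cd48 measured 174, 154 and 179 CPM in HSC and 200.1, 189.9 and 172 CPM in HPC (-0.15 ± 0.08, adjusted p = 0.14), and Flt3 189, 173 and 204 CPM and 179, 222 and 184 CPM (-0.05 ± 0.08, adjusted p = 0.65).

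Imprinted genes, expressed from 1 parental copy and linked to growth and quiescence, included 9 of 18 higher in HSC and 1 lower (median 0.70). Ndn, which encodes the growth suppressor necdin, measured 7.81, 9.18 and 11.6 CPM in HSC and 1.03, 0.621 and 0.535 CPM in HPC (3.70 ± 0.30). Cdkn1c, the CDK inhibitor p57, was higher too, at 12.4, 17.1 and 14.1 CPM against 7.59, 7.96 and 10.5 CPM (0.75 ± 0.16). Phlda2 (2.60), Igf2r (2.58, with an alternate-contig copy) and Ppp1r9a (1.15) stood on the same side, and Peg10 (-0.87) on the other.

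**Figure D4:**
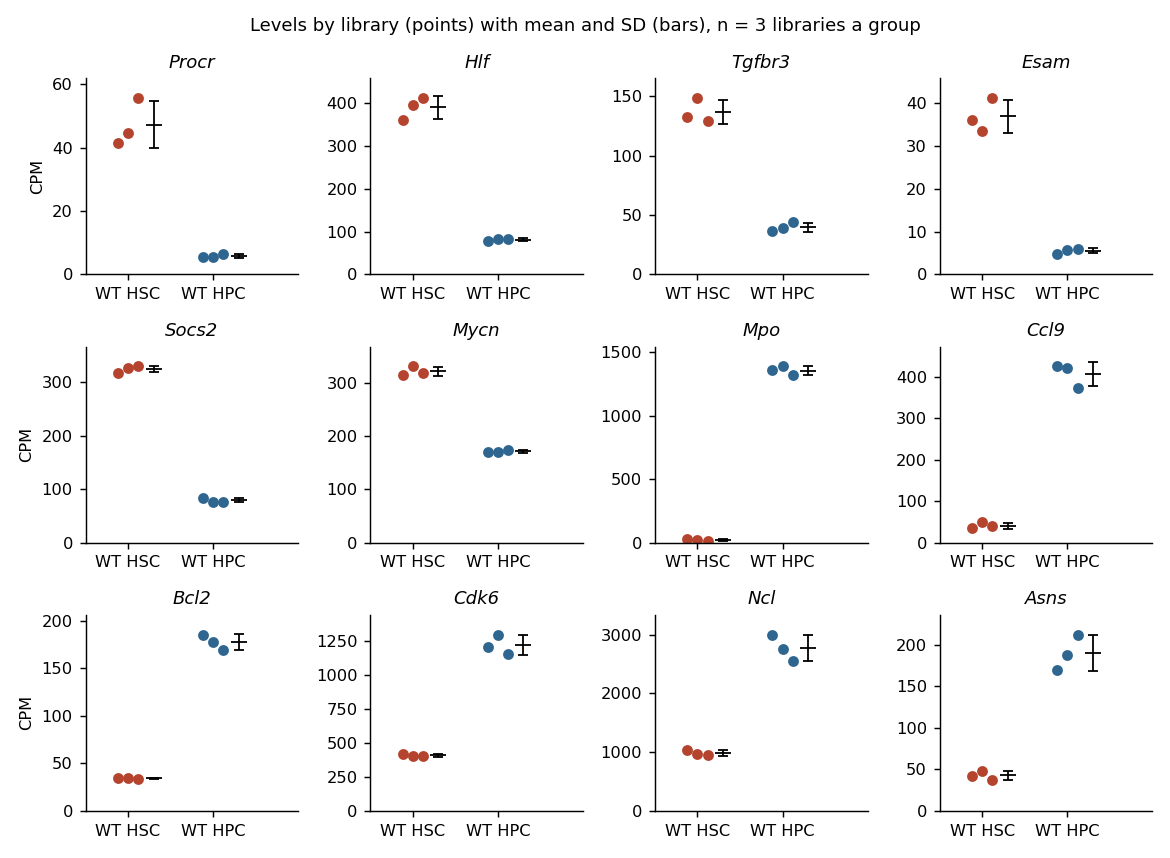
Levels in CPM of 12 genes in each WT library (points, 3 per population), with the mean and SD as bars. HSC libraries are higher for Procr, Hlf, Tgfbr3, Esam, Socs2 and Mycn and lower for Mpo, Ccl9, Bcl2, Cdk6, Ncl and Asns, with no overlap between the groups at any of the 12 genes.

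Genes of the myeloid lineages were lower in HSC, and 3 of their lists had the medians farthest below 0 among the 37. Of 15 neutrophil granule genes tested 12 were lower in HSC, all by at least 2-fold, 1 was higher and 2 did not pass the test. Mpo (chr11:87793784-87804412), which encodes myeloperoxidase, measured 29.8, 18.996 and 15.8 CPM in HSC and 1357, 1388 and 1317 CPM in HPC (-5.99 ± 0.45, adjusted p = 1.70e-07), although a copy on an alternate contig makes its level uncertain. Ctsg (chr14:56099885-56102574), the granule protease cathepsin G, measured 5.10, 3.33 and 2.29 CPM in HSC and 208, 205 and 188 CPM in HPC (-5.84 ± 0.33). For both genes the first HSC library was the highest of its group and still far below every HPC library. Elane, neutrophil elastase, was chosen after its values were seen and measured 0.851, 1.41 and 1.17 CPM in HSC and 36.4, 28.4 and 37.2 CPM in HPC (-4.87 ± 0.40). Cebpa (-2.62 ± 0.13), the factor that opens the granulocyte program, measured 19.2, 20.5 and 15.5 CPM and 114, 117 and 108 CPM. Ltf, the lactoferrin gene of late granules, was the exception, at 11.2, 10.3 and 16.4 CPM in HSC and 4.33, 1.86 and 2.19 CPM in HPC (2.18 ± 0.37). Summed over the list, the level was 280.4 to 323 CPM in the WT HSC libraries and 2059 to 2143 CPM in the WT HPC libraries. Most of the HSC sum was Csf3r, at 221, 223 and 188 CPM in HSC and 185, 196 and 221 CPM in HPC. Csf3r did not pass the test (0.07 ± 0.12, adjusted p = 0.65), and most of the HPC sum was Mpo. The genes of late neutrophils S100a8 (2.63, 1.65 and 1.703 CPM) and S100a9 (4.13, 2.22 and 3.21 CPM) were low in the HPC libraries too. Lcn2 and Chil3 are listed at 0 in all 18 libraries, as Rrm2 is, so their entries give no check of expression. The part of more mature cells in these differences was not tested.

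Monocyte and macrophage genes behaved alike, with 14 of 17 lower in HSC, 1 higher and 2 not past the test (median -2.43). Irf8 (chr8:120736358-120756694), a factor that directs monocyte and dendritic cell fate, measured 10.3, 10.8 and 13.3 CPM in HSC and 63.7, 77.4 and 64.3 CPM in HPC (-2.57 ± 0.10, adjusted p = 8.20e-15). Mpeg1 (-3.90 ± 0.13), a pore-forming protein of macrophages, the chemokine receptor gene Ccr2 (-3.50 ± 0.14) and Itgam (-2.64 ± 0.14), the CD11b integrin, were lower, and Csf1r, the receptor for macrophage colony-stimulating factor, fell to 4.31, 7.21 and 6.33 CPM in HSC against 54.6, 66.8 and 57.8 CPM in HPC (-3.31 ± 0.19). The only gene called higher, Klf4 (1.11), lost its call when any of 5 libraries was left out (0.69 to 1.21). The list summed to 286 to 304 CPM in the WT HSC libraries and 696 to 787 CPM in the WT HPC libraries. The 4 eosinophil genes tested were all lower in HSC, with Prg2 (-5.00), the major basic protein gene, Siglecf (-3.04) and Il5ra (-2.23), and Prg3 at 0 counts in HSC and at least 17.6-fold higher in HPC.

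Mast cell and basophil genes had the lowest median of the 37 lists, -5.11, with 9 of 11 lower in HSC and 0 higher. Fcer1a (chr1:173221269-173227232) and Ms4a2 (chr19:11615517-11623790) encode the alpha and beta chains of the high-affinity IgE receptor. Fcer1a measured 0.159, 0.256 and 0.417 CPM in HSC and 12.1, 15.2 and 18.9 CPM in HPC (-5.72 ± 0.32, adjusted p = 1.22e-11). Ms4a2 measured 0.585, 0.896 and 0.417 CPM and 25.5, 24.5 and 24.1 CPM (-5.27 ± 0.20, adjusted p = 3.79e-15). Fcer1a in HSC lies near the level of 3 counts, and no HSC library approached an HPC library for either chain. Hdc (-5.23 ± 0.31), the histamine-forming enzyme, and Gzmb (-5.54 ± 0.45), a granzyme also found in killer lymphocytes, at 2.71, 5.46 and 3.54 CPM against 198, 178 and 177 CPM, fell likewise. Of the mast cell protease genes, Cpa3 measured 3.67, 4.06 and 4.46 CPM in HSC and 67.6, 55.8 and 54.7 CPM in HPC, while Cma1 was at 0.155, 0.103 and 0.195 CPM in HPC and Tpsab1 is listed at 0 in all 18 libraries. The list summed to 116 to 159 CPM in the WT HSC libraries and 546 to 588 CPM in the WT HPC libraries. Most of the HSC sum was Slc18a2, a monoamine transporter that did not pass the test (adjusted p = 0.34), at 93.1, 137 and 96.5 CPM in HSC and 131, 132 and 146 CPM in HPC.

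The promoters of a few of these genes are shown because the genes differed between the populations together with their lists. Each runs from 250 bases before to 50 bases after the RefSeq start (build GRCm38.p6), 5′ to 3′ on the strand of the gene, and capitals mark matches to any of 5 motifs on either strand. The GATA motif was searched as AGATAA. The RUNX motif was searched as TGTGGT, and the E-box, a palindrome, as CAGCTG. The GC box was searched as GGGGCGGGG and the ETS motif as CCGGAA. Procr (chr2:155750967-155751266) and Hlf (chr11:90390868-90391167) were higher in HSC, and Mpo (chr11:87793534-87793833), Ctsg (chr14:56102525-56102824), Fcer1a (chr1:173227180-173227479) and Ms4a2 (chr19:11623670-11623969) lower.
Procr: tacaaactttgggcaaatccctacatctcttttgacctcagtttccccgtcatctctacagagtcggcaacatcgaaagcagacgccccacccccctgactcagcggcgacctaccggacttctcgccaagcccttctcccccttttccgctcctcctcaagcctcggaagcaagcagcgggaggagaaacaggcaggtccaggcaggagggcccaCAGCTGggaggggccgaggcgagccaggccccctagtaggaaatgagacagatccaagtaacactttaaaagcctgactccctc
Hlf: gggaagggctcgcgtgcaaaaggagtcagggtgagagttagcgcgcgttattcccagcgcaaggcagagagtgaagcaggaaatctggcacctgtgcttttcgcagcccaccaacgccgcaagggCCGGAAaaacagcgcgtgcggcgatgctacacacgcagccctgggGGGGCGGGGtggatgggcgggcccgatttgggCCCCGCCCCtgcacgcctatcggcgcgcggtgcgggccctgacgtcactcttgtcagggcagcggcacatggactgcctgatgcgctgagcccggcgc
Mpo: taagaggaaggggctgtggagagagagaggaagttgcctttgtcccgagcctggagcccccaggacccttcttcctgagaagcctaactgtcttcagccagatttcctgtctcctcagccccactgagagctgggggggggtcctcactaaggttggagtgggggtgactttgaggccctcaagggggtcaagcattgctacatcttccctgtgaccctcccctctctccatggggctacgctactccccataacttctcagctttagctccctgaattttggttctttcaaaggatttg
Ctsg: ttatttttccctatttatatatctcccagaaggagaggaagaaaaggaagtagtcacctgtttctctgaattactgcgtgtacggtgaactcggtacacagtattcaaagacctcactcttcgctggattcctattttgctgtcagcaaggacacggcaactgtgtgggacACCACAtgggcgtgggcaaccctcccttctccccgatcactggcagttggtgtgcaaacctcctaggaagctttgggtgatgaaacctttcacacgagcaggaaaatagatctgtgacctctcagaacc
Fcer1a: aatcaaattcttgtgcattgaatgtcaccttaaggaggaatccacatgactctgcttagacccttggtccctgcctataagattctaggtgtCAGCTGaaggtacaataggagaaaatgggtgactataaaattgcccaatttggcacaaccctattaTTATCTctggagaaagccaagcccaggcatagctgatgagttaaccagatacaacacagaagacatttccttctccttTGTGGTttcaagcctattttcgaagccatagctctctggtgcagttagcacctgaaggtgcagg
Ms4a2: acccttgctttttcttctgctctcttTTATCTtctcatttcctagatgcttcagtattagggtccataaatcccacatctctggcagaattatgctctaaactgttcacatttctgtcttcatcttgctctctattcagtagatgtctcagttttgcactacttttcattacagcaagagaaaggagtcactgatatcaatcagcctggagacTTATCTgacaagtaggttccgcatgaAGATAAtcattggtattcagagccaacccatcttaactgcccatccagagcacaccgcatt
The Hlf window has the highest G and C content of the 6 (67.3%) with 30 CG pairs, 2 GC boxes and 1 ETS match, and the Fcer1a window has 43.7% and 1 CG pair. Ms4a2 holds 3 GATA matches, Fcer1a 1 GATA, 1 RUNX and 1 E-box match, Ctsg 1 RUNX match, Procr 1 E-box match and Mpo none of the 5. A match is a description of the letters, and no match says only that they are not in this window.

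The same motifs were counted over the RefSeq table of promoters, which matched 1029 of the 1756 genes that were at least 2-fold higher in HSC (58.6%, 1321 windows, since a gene can have several starts) and 566 of the 757 lower ones (74.8%, 721 windows). The GATA motif was in 12.3% of windows of the lower set, 7.19% of the higher set, 6.93% of all genes tested and 11.2% of all 32851 windows in the table. The RUNX motif was in 19.8% of the lower set, 14.6% of the higher set, 13.8% of genes tested and 16.8% of the table. The GC box ran the other way, with 9.99% in the lower and 19.7% in the higher set against 19.5% of genes tested and 11.4% of the table. The E-box was in 15.1% of the lower set, 19.3% of the higher set, 15.6% of genes tested and 16.3% of the table. The ETS motif was in 11.7% of the lower set, 11.2% of the higher set, 25.2% of genes tested and 14.9% of the table. The windows also differ in base composition, with a median of 6 CG pairs in the lower set, 13 in the higher set and 19 over all genes tested, and the part of base composition in these shares was not tested. A list of genes with a 2-fold difference was called in the same contrast, so the shares are given with no test.

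Among megakaryocyte and platelet genes 17 of 24 were lower in HSC, 3 were higher and 4 did not pass the test (median -1.17). Itgb3 (chr11:104608000-104670476), which pairs with Itga2b to bind fibrinogen, measured 62.3, 63.9 and 62.9 CPM in HSC and 187, 172 and 169 CPM in HPC (-1.48 ± 0.14, adjusted p = 1.46e-07). Itga2b itself measured 123, 133 and 121 CPM and 345, 325 and 377 CPM (-1.47 ± 0.14), and Plek (-0.90 ± 0.09), a platelet signalling protein, and Gp5 (-3.47 ± 0.26), a platelet glycoprotein, were lower too. Pf4, platelet factor 4, was chosen after its values were seen and measured 57.5, 62.6 and 59.2 CPM in HSC and 149, 124 and 138 CPM in HPC (-1.20 ± 0.14, with an alternate-contig copy). Mmrn1 (1.27) and Pdgfb (0.64) were among the 3 that were higher, and Pdgfb lost its call without any 1 of 3 libraries (0.48 to 0.65). The list summed to 1067 to 1167 CPM in the WT HSC libraries and 1668 to 1751 CPM in the WT HPC libraries.

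Erythroid genes were lower in 12 of 16 cases and higher in 2 (median -2.03). Aqp1, a water channel of red cells, measured 5.53, 5.25 and 5.21 CPM in HSC and 21.6, 19.3 and 24.1 CPM in HPC (-2.02 ± 0.15). Car1, an early erythroid carbonic anhydrase, had 1 count in HSC and 230 in HPC, a ratio of 228 (95% interval 40.5 to 9039). Both members called higher were abundant, with Car2 at 359, 353 and 357 CPM in HSC and 241, 235 and 254 CPM in HPC (0.55 ± 0.06) and the beta-globin gene Hbb-bt at 82.5, 83.5 and 115 CPM and 72.6, 59.5 and 65.7 CPM (0.51 ± 0.13). The other globin genes of the list, Hbb-bs, Hba-a1 and Hba-a2, had too few counts to be tested. Hbb-bs measured 0.372, 0.427 and 0.167 CPM in HSC and 0.0516, 0.310 and 0.146 CPM in HPC. The level of Hbb-bt is therefore uncertain, and whether counting explains it was not tested. The list summed to 749 to 771 CPM in the WT HSC libraries and 676 to 787 CPM in the WT HPC libraries.

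Lymphoid genes did not move as a block. Of 20 lymphoid priming genes 5 were higher in HSC, 7 lower and 8 did not pass the test (median -0.12), and 8 were higher with upper-quartile factors. With at least a 2-fold difference 2 were higher and 5 lower. Satb1 (chr17:51736187-51833290), a chromatin organiser of lymphoid cells, measured 33.2, 31.1 and 29.8 CPM in HSC and 97.7, 124 and 106 CPM in HPC (-1.80 ± 0.09, adjusted p = 1.60e-13), and Ikzf1 (-0.58) and Mef2c (-0.93) were lower by less. Dntt, the terminal transferase of early lymphoid cells, went the other way, at 17.8, 15.8 and 23.1 CPM in HSC and 5.47, 8.33 and 7.06 CPM in HPC (1.44 ± 0.28), as did Lax1 (1.32), Cd27 (0.71) and Ltb (0.86). Dntt was -0.31 between the het populations and 0.51 between the hom populations, and the adjusted p of its difference from WT was 0.0234 for het and 0.202 for hom (edgeR interaction term).

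T-cell genes split evenly, with 3 higher, 3 lower and 6 not past the test among 12 (5 higher with upper-quartile factors). Gata3 (0.79 ± 0.16) was higher at 14.2, 19.4 and 17.4 CPM in HSC and 9.75, 9.83 and 9.88 CPM in HPC, and Cd28 (-2.08 ± 0.20) lower at 3.08, 5.55 and 3.79 CPM and 16.1, 18.1 and 18.980 CPM. Tcf7, the T-cell factor TCF1, was called higher (0.43 ± 0.17, adjusted p = 0.0397) and lost its call without any 1 of 4 libraries (0.27 to 0.48), and Zap70 (-2.40) was under 1 CPM in every library and lost its call without the third HSC library (-1.79). Bcl11b had 0 counts in both WT groups and Cd3e is listed at 0 in all 18 libraries. Of the B-cell genes 4 of 14 were tested, of which 2 were higher, Cd79b (0.48) among them, and Cd22 (-3.14) was lower. Of 7 killer-cell genes tested 4 were lower, including Nkg7 (29.1, 26.0 and 32.4 CPM in HSC and 100.7, 93.3 and 94.3 CPM in HPC, -1.72 ± 0.11) and Klrd1 (-4.54), and Id2 (1.12) was higher. Of 17 dendritic cell and MHC class II genes 11 were lower (7 without the third HPC library), such as Itgax (-4.07) and Siglech (-2.74), while Cd74, the invariant chain, was higher at 78.2, 96.9 and 92.3 CPM against 31.9, 30.4 and 31.6 CPM (1.51 ± 0.20), with Zbtb46 (1.95) and Fscn1 (2.56). Among 17 stromal and endothelial cell genes 6 were tested, of which 3 were higher in HSC, 1 was lower and 2 did not pass the test. The most abundant of them, Pdgfrb, a receptor for platelet-derived growth factor, was the 1 that was lower, at 76.7, 68.2 and 75.2 CPM in HSC and 101.5, 121 and 123 CPM in HPC (-0.65 ± 0.08, adjusted p = 8.85e-07). Sparc (3.18 ± 0.27) measured 14.2, 12.9 and 17.0 CPM in HSC and 1.34, 1.55 and 1.95 CPM in HPC. The collagen gene Col1a1 was higher in HSC at 0.851, 1.32 and 1.67 CPM against 0.413, 0.155 and 0.0973 CPM (2.52, and 3.30 without the first HPC library), and Pdgfra had 28 counts in HSC against 2 in HPC, a ratio of 14.1 (95% interval 3.56 to 122). Kdr (-0.21) and Plvap (-0.11), genes of endothelium, did not pass the test. Col3a1 and Cxcl12 were at 0 in both groups, and Dcn and Lum are listed at 0 in all 18 libraries.

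The growth machinery was lower in HSC. Of 25 MYC and ribosome biogenesis genes 19 were lower, 1 was higher and 5 did not pass the test (median -0.66). Ncl (chr1:86344719-86359455), nucleolin, measured 1041, 962 and 947 CPM in HSC and 3003, 2764 and 2557 CPM in HPC (-1.50 ± 0.09, adjusted p = 5.22e-12), and Npm1, nucleophosmin, 1199, 1084 and 1199.6 CPM and 2752, 2656 and 2293 CPM (-1.14 ± 0.08). Pes1 (-0.83 ± 0.07), which processes ribosomal RNA, followed. The single gene that was higher is Mycn (chr12:12936093-12941836), at 315, 331 and 319 CPM in HSC and 169, 171 and 174 CPM in HPC (0.91 ± 0.06, adjusted p = 1.56e-11), so that Mycn and Mycl, relatives of Myc, differed in opposite directions. Mycl was at 0.372, 0.128 and 0.0417 CPM in HSC. Myc itself was lower in HSC, at 292, 328 and 253 CPM against 357, 353 and 344 CPM in HPC (-0.27 ± 0.10, adjusted p = 0.02). Cytosolic ribosomal protein genes moved little and in both directions, with 20 of 47 lower, 8 higher and 19 not past the test (median -0.15), such as Rps14 (-0.70) and Rps2 (-0.59) against Rpl13 (0.47) and Rplp2 (0.51). Ribosomal protein genes have many near-identical copies, which makes single values uncertain.

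Among cell-cycle genes the regulators of G1 held the calls of at least 2-fold. Cdk6 (chr5:3341004-3531008), a kinase of the G1 phase that governs the exit of stem cells from quiescence, measured 422, 406 and 402 CPM in HSC and 1210.0, 1301 and 1154 CPM in HPC (-1.57 ± 0.09, adjusted p = 6.63e-12). Its partner cyclin D2, Ccnd2 (chr6:127125162-127152188), measured 302, 313 and 309 CPM and 639, 689.9 and 608 CPM (-1.07 ± 0.07, adjusted p = 9.87e-12). Every HSC library was under every HPC library for both genes, and these 2 were the only ones of 17 G1 regulators with at least a 2-fold difference. Of the 17, 3 were higher in HSC, 7 lower and 7 did not pass the test (median -0.21). Ccnd3 (0.36) and Cdk2 (0.22) were higher by small amounts. Of the CDK inhibitor genes tested, Cdkn2c (-0.47) and Cdkn1b (-0.41) were lower and Cdkn1c (0.75) higher. Cdkn1a and Cdkn2d did not pass the test. Of 25 S phase genes 14 were lower in HSC, 0 higher and 0 of the calls reached 2-fold (median -0.32), with Mcm3, a part of the replicative helicase, at 339, 334 and 319 CPM against 496, 424 and 428 CPM (-0.44 ± 0.09). G2 and mitosis genes had a median of 0.04, with 7 higher, 6 lower and 12 not past the test (4 higher without the second HPC library). Ube2c (0.63), Ccnb1 (0.34), Cdk1 (0.39) and Plk1 (0.38) were higher, and Mki67 (-0.41), the Ki-67 antigen, and Top2a (-0.37) lower. Both populations held these transcripts at high levels, with Mki67 at 640.0 ± 21.7 CPM in HSC and 851 ± 61.0 CPM in HPC (mean ± SD, n = 3 libraries).

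Nuclear genes of the respiratory chain were lower in 15 of 33 cases and higher in 3 (median -0.18), with Uqcrb of complex III lowest among those named, at 33.7, 35.6 and 43.2 CPM in HSC and 101.2, 90.5 and 77.7 CPM in HPC (-1.26 ± 0.11). Uqcrfs1 (0.20) and Uqcrc1 (0.19), called higher, each lost the call under several alternatives, and the count higher lay between 1 and 7 over the alternatives. Among 10 mitochondrially encoded genes 7 were lower and 0 higher (median -0.49), with ND5 at 1439, 1666 and 1208 CPM against 2642, 2544 and 1815 CPM (-0.70 ± 0.12). The 3 with at least a 2-fold difference, COX3 (-1.95), ND4L (-1.45) and ND3 (-1.07), were under 10 CPM in every library, and ND1, ND2 and ND4 did not pass the test. COX2, ATP6 and ATP8 had too few counts to be tested, and ATP8 is listed at 0 in all 18 libraries. COX2 measured 0.266, 0.299 and 0.125 CPM in HSC, where COX1 measured 9369, 9355 and 7816 CPM. The low entries of this list are therefore uncertain, and whether counting explains them was not tested. Glycolysis and hypoxia-inducible genes had a median of -0.10, with 9 of 24 lower and 2 higher, and Ero1a, an oxidase of the endoplasmic reticulum, measured 174, 207 and 187 CPM and 358, 407 and 458 CPM (-1.11 ± 0.10). Cholesterol synthesis genes went up in 10 of 21 cases and down in 1 (median 0.26), for example Msmo1 (0.50) and Srebf2 (0.33), and 6 were higher without the second HPC library, while Stard4 (-0.17), the 1 called lower, lost its call with upper-quartile factors and without the first HPC library. Lysosomal genes were divided, 11 higher and 7 lower of 22 (median 0.14), with Laptm4b highest, at 109, 113 and 119 CPM in HSC and 25.6, 23.6 and 22.1 CPM in HPC (2.26 ± 0.11, adjusted p = 2.00e-13), and Ctsz (-0.92) and Npc2 (-0.68) on the lower side.

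Genes of the integrated stress response and of serine synthesis were lower in HSC almost without exception, 18 of 19 with 13 at 2-fold or more (median -1.48). Asns (chr6:7675165-7693209), asparagine synthetase, measured 42.5, 48.3 and 37.6 CPM in HSC and 169.8, 188 and 212 CPM in HPC (-2.15 ± 0.13, adjusted p = 6.03e-11). Psat1, which makes phosphoserine, measured 187, 167 and 163 CPM and 460.2, 460.0 and 481 CPM (-1.44 ± 0.10), Chac1 (-2.48) degrades glutathione, and Slc3a2 (-1.18) is a chain of amino acid transporters. Xbp1, a factor of the unfolded protein response, was the 1 gene higher, at 435, 489 and 445 CPM against 285, 285 and 296 CPM (0.66 ± 0.09). Interferon-response genes were lower in 22 of 27 cases and higher in 1 (median -0.76). Usp18, which shuts off the interferon receptor, measured 51.2, 52.2 and 36.4 CPM in HSC and 164, 152 and 149 CPM in HPC (-1.74 ± 0.12), Ifit2 41.6, 49.6 and 45.5 CPM and 113, 107 and 102 CPM (-1.23 ± 0.10), and Oas2 (0.50) was the exception. The p53 targets were mixed, 4 higher and 5 lower of 16 (median -0.13), with Bax (0.82) higher and Perp (-3.53) and Pmaip1 (-2.19) lower.

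Immediate early genes, which respond within minutes to growth factors or to handling, had the highest median of the 37 lists, 1.76, with 11 of 19 higher in HSC, all by at least 2-fold, and 2 lower. Egr1, an activator known to hold stem cells in the niche, measured 247, 899 and 303 CPM in HSC and 19.9, 16.6 and 19.1 CPM in HPC (4.70 ± 0.94, adjusted p = 9.28e-04). The second HSC library was far above the others, and the log2 fold change was 3.89 without it. Junb measured 145, 296 and 213 CPM and 53.8, 52.6 and 50.4 CPM (2.06 ± 0.30), Jund 203, 268 and 218 CPM and 77.8, 72.5 and 71.4 CPM (1.64 ± 0.15, with an alternate-contig copy), and Ier3 (1.51) and Nr4a1 (1.76) were higher too. The second HSC library was again highest for Junb, Jund, Ier3 and Nr4a1. Fos, picked once its values were known, missed the threshold although its groups did not overlap (18.8, 31.7 and 32.4 CPM and 4.08, 1.40 and 2.14 CPM, 3.45 ± 1.41, adjusted p = 0.0554), and passed it without the low-count filter and in the fits of the 2 groups alone. Atf3 (-1.84) and Nr4a3 (-1.28) were lower. The list summed to 1064 to 2339 CPM in the WT HSC libraries and 402 to 438 CPM in the WT HPC libraries, and the part of sorting or of 1 library in this difference was not tested beyond these values.

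Cytokine receptors differed in both directions. Of 30 genes 7 were higher in HSC, 13 lower and 10 did not pass the test (median -0.10). Tgfbr3 (chr5:107106567-107289629), the co-receptor betaglycan, measured 133, 149 and 129 CPM in HSC and 36.5, 38.8 and 44.1 CPM in HPC (1.78 ± 0.09, adjusted p = 5.90e-13), and with Il11ra1 (0.58) and Ifngr2 (0.49) was higher. Il1rl1, Csf1r, Il6ra (-1.41) and Il18rap (-0.70) were lower. Genes of STAT5 feedback, which cytokine receptors switch on, were higher in 8 of 14 cases and lower in 2 (median 0.55). Socs2 (chr10:95383903-95417321), a feedback inhibitor, measured 318, 326 and 329.8 CPM in HSC and 83.6, 76.7 and 76.8 CPM in HPC (2.04 ± 0.08, adjusted p = 4.28e-15), and Socs1 (1.06) and Cish (0.62) were higher by less. Bcl2 (chr1:106538176-106714290), the survival gene grouped with them, went the other way, at 35.1, 34.2 and 33.3 CPM and 186, 177 and 169 CPM (-2.37 ± 0.07, adjusted p = 5.48e-17).

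Adhesion and chemokine genes were mostly lower in HSC. Of 28 integrins and adhesion molecules 18 were lower and 6 higher (median -0.34). Pecam1 measured 119.5, 119 and 120.2 CPM in HSC and 236, 258 and 238 CPM in HPC (-1.03 ± 0.06), and Itgb7, a gut-homing integrin chain, 29.6, 21.3 and 26.4 CPM and 76.1, 80.5 and 78.5 CPM (-1.61 ± 0.09). Itgb5 (chr16:33829665-33949338) was higher, at 74.3, 75.4 and 73.3 CPM against 25.2, 24.2 and 23.7 CPM (1.61 ± 0.07, adjusted p = 5.60e-14), with Itga3 (3.06). Of 15 chemokines and chemokine receptors 11 were lower and 0 higher (median -1.13). Ccl9 (chr11:83572917-83578636), a chemokine of myeloid progenitors, measured 34.8, 48.7 and 39.1 CPM in HSC and 426, 421 and 374 CPM in HPC (-3.31 ± 0.10, adjusted p = 1.09e-16), and Cxcr4, the receptor that retains cells in the marrow, 50.6, 42.0 and 51.9 CPM and 97.3, 113 and 99.1 CPM (-1.10 ± 0.08).

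Notch pathway genes were higher in 8 of 17 cases and lower in 3 (median 0.55). Jag2, a ligand, measured 55.6, 61.1 and 59.6 CPM in HSC and 26.5, 29.4 and 26.6 CPM in HPC (1.10 ± 0.09), and Nrarp, a feedback gene of the pathway, 22.6, 28.0 and 26.2 CPM and 11.4, 10.8 and 10.95 CPM (1.22 ± 0.12). The ligand gene Dll4 was low, at 0.797, 2.52 and 0.958 CPM and 0.103, 0.103 and 0.0973 CPM (3.75, and 3.04 without the second HSC library). Dtx4 (chr19:12466329-12502179), a ubiquitin ligase of the Deltex family, had the largest difference of the list and ran the other way, at 1.65, 1.32 and 1.58 CPM in HSC and 47.7, 59.5 and 57.5 CPM in HPC (-5.18 ± 0.14, adjusted p = 3.53e-17). The receptor gene Notch2 (-0.49) and Rbpj (-0.46), which carries the signal to DNA, were lower.

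On the scale of level per length (RPKM, CPM divided by exon length in kilobases) the populations shared their most abundant transcripts. Eef1a1, translation elongation factor 1 alpha, was first in both, at 7338 ± 233 RPKM in HSC and 8563 ± 199 RPKM in HPC (mean ± SD, n = 3 libraries), followed by mitochondrial COX1 at 5726 ± 578 and 7765 ± 1308 RPKM. B2m, the light chain of MHC class I, was at 3096 ± 103 and 2925 ± 270.1 RPKM and did not pass the test (0.08, adjusted p = 0.44). Ptma, prothymosin alpha, a small nuclear protein of dividing cells, was among the 10 most abundant in HPC alone, at 2519 ± 315 RPKM against 887 ± 41.3 RPKM in HSC (-1.51 ± 0.10, adjusted p = 7.02e-11).

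The same contrast was then drawn in the het and hom libraries, which share no library with the WT contrast but share its confounding with sex and table. It called 8584 genes (57.7%) in het and 8959 (60.2%) in hom. Of the 1756 genes at least 2-fold higher in WT HSC, 1445 were called higher in het HSC and 1450 in hom HSC, and of the 757 lower ones 658 and 663 were called lower. Opposite calls were made for 3 of these 2513 genes in het and 2 in hom, and 1929 of the 2513 (76.8%) were called the same way in both. A test of the difference between genotypes (interaction term) called 284 genes (1.91%) for het and 404 (2.72%) for hom against WT. Procr was 3.17 in het and 3.07 in hom, Hlf 1.86 and 2.05, Mpo -7.28 and -6.39, Cdk6 -1.63 and -1.44, and Dtx4 -6.04 and -5.72, each with the sign of its WT value.

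**Figure D5:**
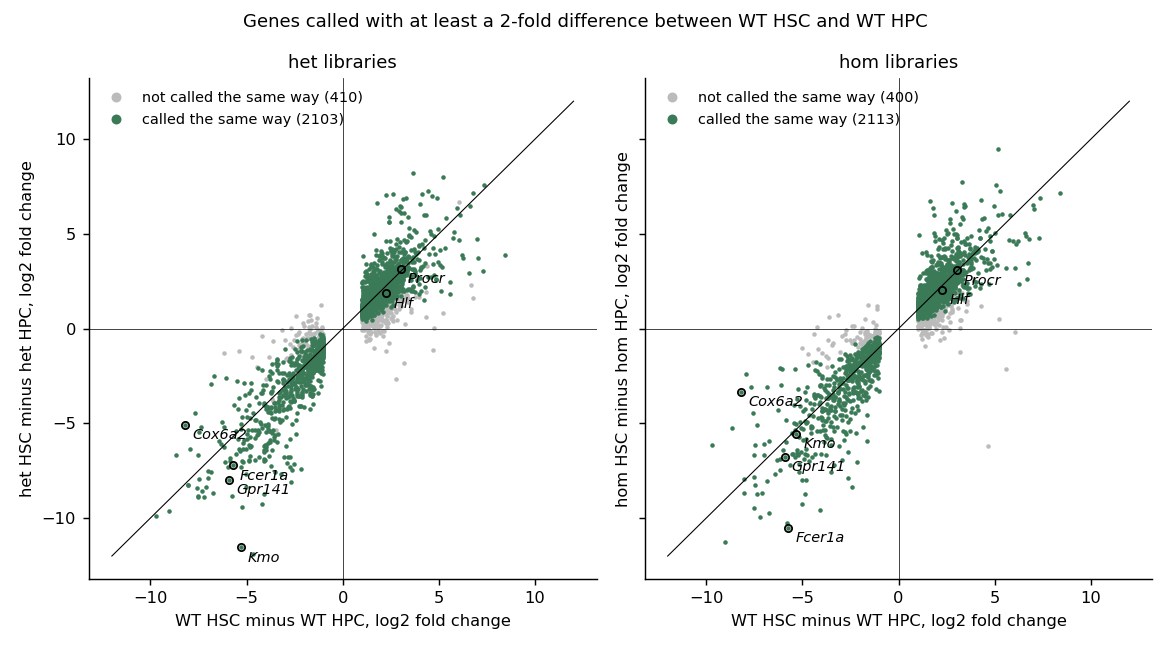
The log2 fold change of HSC minus HPC in WT (horizontal axis) against the same difference in het (left) and hom (right) libraries, 1 point per gene called with at least a 2-fold difference in WT, with the line of equal values. In het 2103 and in hom 2113 of the 2513 genes are called the same way, and Kmo in het and Fcer1a and Cox6a2 in hom lie away from the line.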

How the data were processed

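Raw read counts per gene were deposited by the authors in 1 table for HSC and 1 for HPC. Per the file headers they come from featureCounts 2.0.6 on paired reads, without strand, over exons of an mm10 RefSeq annotation. Per the submitters' processing notes reads were trimmed with Trim Galore 0.6.10 and aligned with STAR 2.7.11a, and these notes name mm39, so coordinates follow the file headers. Without strand, overlapping genes cannot be told apart.

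The tables, 49997 genes each, were joined by gene name, and 2901 genes on chrX and chrY were dropped. Genes were filtered with filterByExpr, and TMM factors and a quasi-likelihood test were computed with edgeR 4.0.16 (limma 3.58.1, R 4.3.3) in 1 fit of 18 libraries in 6 groups, with Benjamini-Hochberg adjustment and a threshold of 0.05. CPM values use TMM library sizes. Simulated data held 100 changes of 0.5 and 100 of 1 on the log2 scale, all in genes averaging above 1 CPM. Of these 59% and 87% were recovered over 14460 genes, with 7 false calls. Far fewer genes were changed than were called in WT, so these shares need not hold for the reported comparison. No libraries were duplicates.

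Named genes are the sort and RUNX genes, the 12 largest called differences each way among genes with at least 5 CPM in the higher group and no overlap, predicted genes left out, up to 4 called genes each way per list by smallest p, and the 10 of highest RPKM per population. Members and lists were chosen with earlier results of these data known. Alternatives were DESeq2 1.42.0, other size factors, filters, groups, a replicate block, kept sex chromosomes and left-out libraries. A few genes of the lists are counted but not reported here by name.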

Additional observations from a re-analysis of the deposited data

Results flagged for a closer look

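The 24 genes named above for the largest WT differences have at least 5 CPM in the higher population. At 4 of the 24 the size of the HSC minus HPC difference passed a test against another genotype (edgeR interaction term, adjusted over all genes tested). All 4 were lower in HSC in each genotype by the fitted values. Kmo had a het minus WT difference of -6.23 ± 1.09 (SE, adjusted p = 0.00337), with mean levels of 0.246 CPM in WT HSC, 10.4 CPM in WT HPC, 0 CPM in het HSC and 18.2 CPM in het HPC. Fcer1a had a hom minus WT difference of -4.80 ± 1.29 (adjusted p = 0.0492), with 0 CPM in hom HSC and 9.003 CPM in hom HPC. Where an HSC group is at 0, as here for Kmo in het and Fcer1a in hom, the fitted size depends on the prior count and is no bound.

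Gpr141 had a het minus WT difference of -2.05 ± 0.50 (adjusted p = 0.0354), with 0.186 CPM in het HSC and 48.9 CPM in het HPC against 0.913 and 54.5 CPM in WT. Cox6a2 had a hom minus WT difference of 4.85 ± 1.19 (adjusted p = 0.0315), with 0.405 CPM in hom HSC and 4.14 CPM in hom HPC, and rests on 1 count in WT HSC.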

How the results depend on the processing

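Under the 15 alternatives run for the WT comparison the count of genes called lay between 7175 and 8495 (8144 as reported) and the count with at least a 2-fold difference between 2118 and 2739 (2513 as reported). Leaving out 1 library in turn gave 7175 to 7587 and 2298 to 2514 genes, 7728 to 8178 in het and 8217 to 8894 in hom. No gene called in WT was called the opposite way under any of the 15, and 86.6% to 99.95% of the calls were kept. Upper-quartile factors raised the share of calls that were higher in HSC, to 58.9% in WT (4794 higher and 3342 lower), from 49.7% to 60.0% in het and from 49.5% to 58.7% in hom, with a median shift of 0.08 on the log2 scale. Of 245 named genes 234 kept their direction and their side of the threshold under every alternative run.

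Deviations of same-numbered WT libraries from their group means correlated at 0.03, 0.0077 and 0.00054. These values show no pairing by replicate number, but with 3 libraries a group they cannot exclude a shared preparation. A replicate block gave 8495 WT calls in the fit of the 2 groups and 8145 in the fit of 18 libraries (2254 and 2492 at 2-fold). The same counts were 8745 and 8617 in het, and 8207 and 8961 in hom. Without the block the fit of the 2 groups gave 8488 calls in WT, 8331 in het and 7795 in hom. The block thus added few calls in WT and more in het and hom. At 2-fold the WT count of that fit was 2281 without the block, above the 2254 with it. The correlation by replicate number was not computed in het or hom. In the imprinted, B-cell, MYC, interferon and mitochondrial lists the counts of 0 or 1 or 2 genes called in 1 direction moved to between 1 and 3 under some settings. Genes near the level of 3 counts have fitted fold changes that depend on the prior count.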
